A study of Mus musculus with 2 samples.

Results

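The genes described are 10 genes of mesenchymal identity and PDGF signalling, chosen by name: the PDGF receptor genes Pdgfra, Pdgfrb and Pdgfrl, the transcription factor genes Tbx18 and Twist1, the cytoskeletal genes Vim and Acta2, and S100a4, Thy1 and Tnfrsf11b. Of these 10 genes, 9 had a probe named by the platform's annotation, with 11 probes among 9762 named probes in all, and 8 were detected among 6702 detected genes. The list was put together with the differences between these 2 arrays already known, and those differences are therefore given as a description. RNA came from SN4741, an immortalized cell line made from embryonic mouse substantia nigra and labelled as dopaminergic neuronal, grown at 33 C. The overexpression group was sampled after 12 h of Oxi-beta overexpression, and the control group is placed by the series' design at 0 h. Each group was 1 array of RNA pooled from 3 samples, so no replicate error could be estimated and no test was possible. The labels do not state how the gene was delivered or what, if any, construct the control cells received. Overexpression, any construct and 12 h of time cannot be told apart in these 2 arrays. In a bulk RNA sample, fewer cells of one type and less RNA per cell cannot be told apart either.

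Platelet-derived growth factors bind receptor tyrosine kinases on mesenchymal cells, fibroblasts, pericytes and smooth muscle, where ligand binding pairs the receptors and starts growth and migration signals. Mesenchymal cells also carry vimentin filaments, and contractile ones carry smooth muscle actin. Factors of the Twist and T-box families set mesenchymal identity in the embryo. In the brain several of these genes are best known from pericytes and perivascular fibroblasts, while Thy1 is also a surface gene of neurons and Pdgfra one of oligodendrocyte progenitors.

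The promoters of 4 members are shown because the results of these genes contrast. After background correction and quantile normalization, Tbx18 had the lowest difference of any gene detected on both arrays. Genes detected on 1 array only were left out of that order. Vim, S100a4 and the brightest Acta2 probe gave bright signals that differed little, while the dimmer Acta2 probes were lower. Sequences are from RefSeq, mouse build GRCm38.p6, and cover 250 bases before to 50 bases after the annotated start of transcription. Capitals mark the sequence TATAAA on either strand, and CArG boxes, the sites bound by serum response factor, with at most 1 of the 6 inner bases other than A or T.
Tbx18, chr9:87731211-87731510, strand -: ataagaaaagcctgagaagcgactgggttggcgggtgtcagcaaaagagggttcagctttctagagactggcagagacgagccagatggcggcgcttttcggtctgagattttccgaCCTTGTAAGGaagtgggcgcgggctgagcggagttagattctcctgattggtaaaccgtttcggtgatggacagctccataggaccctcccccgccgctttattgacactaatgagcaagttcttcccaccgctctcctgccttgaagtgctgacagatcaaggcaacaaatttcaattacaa
Acta2, chr19:34255324-34255623, strand -: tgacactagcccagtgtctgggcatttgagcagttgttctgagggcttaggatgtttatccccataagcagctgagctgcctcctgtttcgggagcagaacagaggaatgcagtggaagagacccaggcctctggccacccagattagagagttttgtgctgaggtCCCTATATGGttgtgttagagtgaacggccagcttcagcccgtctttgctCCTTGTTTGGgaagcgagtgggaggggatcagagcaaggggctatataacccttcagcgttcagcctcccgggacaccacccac
Vim, chr2:13574061-13574360, strand +: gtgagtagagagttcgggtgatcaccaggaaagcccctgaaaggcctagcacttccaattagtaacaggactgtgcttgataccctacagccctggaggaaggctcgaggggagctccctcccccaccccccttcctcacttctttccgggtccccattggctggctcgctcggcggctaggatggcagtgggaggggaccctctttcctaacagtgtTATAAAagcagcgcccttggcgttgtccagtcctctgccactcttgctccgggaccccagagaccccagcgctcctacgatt
S100a4, chr3:90603520-90603819, strand +: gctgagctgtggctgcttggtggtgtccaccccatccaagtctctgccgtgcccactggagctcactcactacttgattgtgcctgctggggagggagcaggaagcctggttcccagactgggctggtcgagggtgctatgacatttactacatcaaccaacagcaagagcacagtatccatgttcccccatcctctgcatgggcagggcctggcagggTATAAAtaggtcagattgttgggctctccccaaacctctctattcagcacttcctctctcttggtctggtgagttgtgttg
Tbx18 held 1 CArG match and Acta2 held 2, and Vim and S100a4 held none. TATAAA was found in Vim, S100a4 and, among the promoters not shown, Twist1. Of 32851 mouse promoters of this length, 9.98% held such a CArG match and 13.6% held TATAAA. Promoters of 6 of the 10 members were in the table. Between the 2 motifs there were 0 overlaps in the members' promoters. A match is a run of letters and was not tied to binding in these cells.

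The arrays had like shares of detected probes (detection p-value under 0.01), 35.7% of 24613 on the overexpression array and 35.8% on the control array. The lowest signal of a detected probe was 196 on the overexpression array and 201 on the control array, and the median of detected probes was 896 on the overexpression array and 950 on the control array. Signals of different probes depend on the probe, so each is set against the detection limit of its own array and not against other genes. Differences are log2 values, overexpression minus control, after background correction and quantile normalization. The central 95% of the differences over all 6702 detected genes ran from -0.34 to 0.33, with a median of -0.0036. In the 999 genes with more than 1 probe detected on each array, the differences of a gene's probes had a pooled SD of 0.149, which measures how far probes disagree and says nothing of cultures.

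Vim, S100a4 and the brightest Acta2 probe were far above background on both arrays, while Tbx18 and Pdgfrl lay close to the detection limit. Tbx18 and Pdgfrl were the members with the lowest relative level after Oxi-beta overexpression. Of the 8 detected members, 7 had a difference below 0 and 1 was above, beside 51.0% of all detected genes below 0. With median scaling 6 were below 0 and 2 above, beside 43.8% of all detected genes below 0. With deposited signals, which are not normalized, all 8 were below 0, beside 74.9% of all detected genes, whose median was then -0.079. The median over the 8 was -0.24, or 1.18-fold lower. At 1.5-fold, 2 members were lower (Tbx18 and Pdgfrl) and 0 were higher, beside backgrounds of 0.433% lower and 0.582% higher. No independent reading follows from these counts, because the list was drawn up from the same contrast. With the authors' deposited values 0 members reached 1.5-fold lower (background 0.0298%), and with deposited signals 1 did (background 0.0448%).

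**Figure D1:**
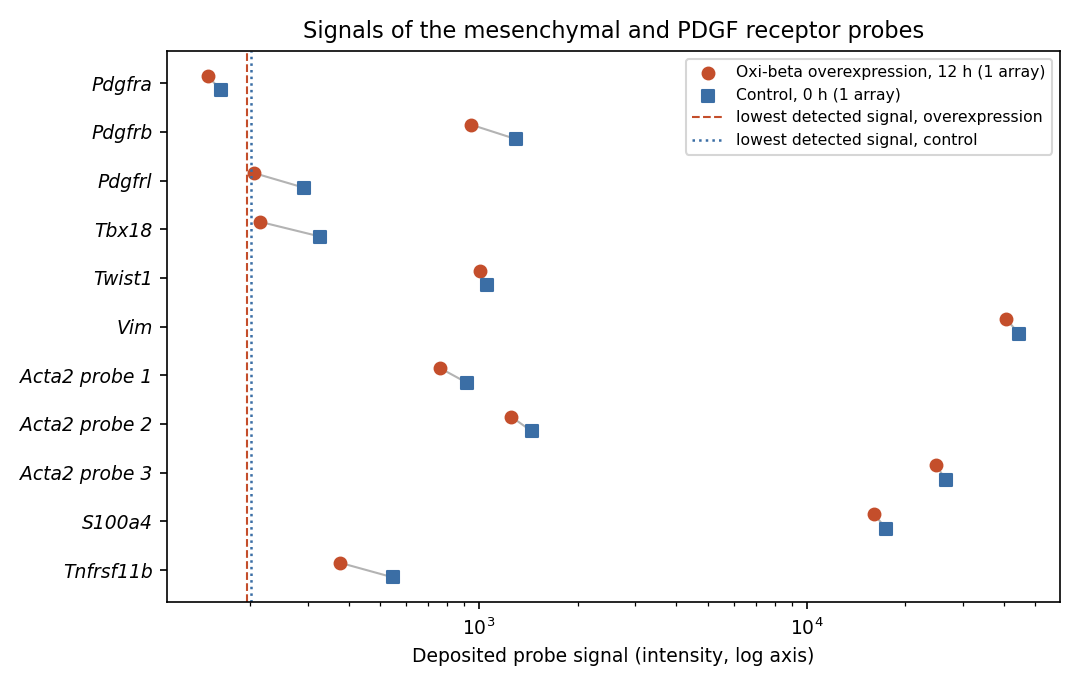
Deposited signal (intensity, log axis) of each member probe on the overexpression array (circles) and the control array (squares), 1 array per group with no error bars; vertical lines mark the lowest detected signal of each array. Pdgfra lies left of both lines, Pdgfrl and Tbx18 lie just right of them, and Vim, S100a4 and the brightest Acta2 probe lie at the right, from 16061 upward.

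The 3 PDGF receptor genes spanned the range from undetected to well detected. Pdgfrb, which encodes the receptor for PDGF-BB and is a classic pericyte gene, gave signals of 943.0 on the overexpression array and 1298 on the control array (probe ILMN_2756876). The signal was 4.81 times the lowest detected signal on the overexpression array and 6.47 times it on the control array, and the detection p-value was 0 on both. The difference was -0.40, or 1.32-fold lower, and it stayed between -0.46 and -0.37 over the 6 ways of processing. It lay below the central 95% of all genes.

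Pdgfrl encodes a secreted protein that resembles the outer part of the PDGF receptors and has no kinase. Its probe (ILMN_2659286) gave 206.5 on the overexpression array, at a detection p-value of 0.0073, and 293.2 on the control array, at 0.0024. The signal was thus 1.05 times the detection limit after overexpression and 1.46 times the limit in control cells. The difference was -0.73, or 1.65-fold lower, while the authors' deposited values gave -0.46 and the ratio of the deposited signals was 0.704. Near the limit, the background that is subtracted makes up much of the signal, and values move accordingly.

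Pdgfra, the receptor for PDGF-AA, was not well above background on either array. Signals were 149 on the overexpression array and 163 on the control array, with detection p-values of 0.0474 on the overexpression array and 0.0255 on the control array (probe ILMN_1235932). No fold is given for it. Of the 2 receptor kinases among the members, only Pdgfrb thus had a measurable level.

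Among the transcription factors, Tbx18, a T-box repressor of epicardium, ureter mesenchyme and pericytes, gave 215 on the overexpression array and 327 on the control array (probe ILMN_1246123). On the overexpression array the detection p-value was 0.0061 and the signal 1.10 times the detection limit, and on the control array they were 0 and 1.63 times. The difference was -0.84, or 1.78-fold lower, and it ranked 1 from the lowest among 6470 genes detected on both arrays. The authors' deposited values gave -0.55, and the deposited signals gave a ratio of 0.658. Pdgfrl ranked 3, Tnfrsf11b 8 and Pdgfrb 58 in the same order. These ranks leave out genes detected on 1 array only, so a gene that fell below the detection limit has no rank. Among 6702 genes detected on at least 1 array, 29 were at least 1.5-fold lower. With the authors' values 2 of the 6702 were, and Tbx18 was not among them. The ranks describe a list chosen with these differences known.

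Twist1, a helix-loop-helix factor of cranial and limb mesenchyme, gave 1009 on the overexpression array and 1058 on the control array (probe ILMN_1236188). These were 5.14 times the detection limit on the overexpression array and 5.27 times on the control array. The difference was 0.041, and its sign depended on scaling, with -0.069 for the deposited signals, where the median of all detected genes was -0.079. The arrays thus differed at Twist1 by less than the 0.149 by which probes of 1 gene disagreed.

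Tnfrsf11b encodes osteoprotegerin, a secreted decoy receptor that binds RANKL and TRAIL. Its signal was 377 on the overexpression array and 546 on the control array (probe ILMN_2513826). That was 1.92 times the detection limit on the overexpression array and 2.72 times on the control array. The difference was -0.57, or 1.49-fold lower, just outside the 1.5-fold line, as Pdgfrl at -0.73 was the nearest member inside it. Over the 6 ways of processing it ran from -0.57 to -0.46.

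**Figure D2:**
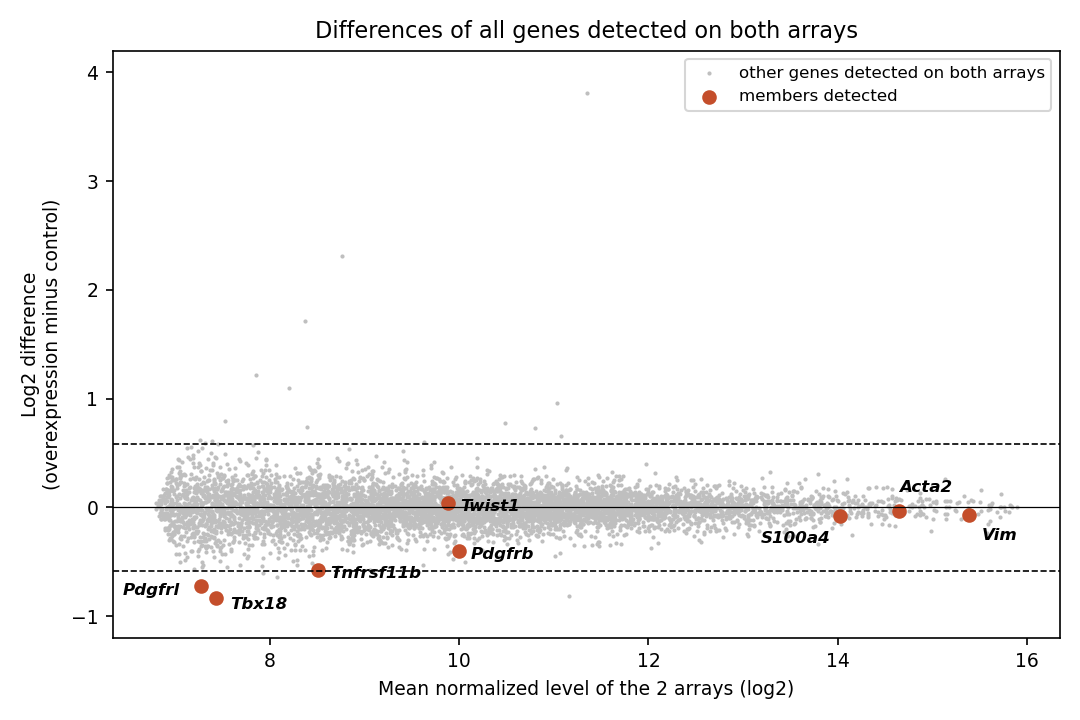
Log2 difference (overexpression minus control, vertical axis) against the mean normalized level of the 2 arrays (log2, horizontal axis) for genes detected on both arrays, with members as large points and dashed lines at 1.5-fold. Tbx18 and Pdgfrl lie below the lower line at the dim end, Tnfrsf11b lies just above it at -0.57, Pdgfrb lies higher at -0.40, and Vim, Acta2 and S100a4 lie near 0 at the bright end.

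The spread of differences was wider among dim genes, where Tbx18 and Pdgfrl lie. Among 1297 genes detected on both arrays with a control signal under 2 times the detection limit, a bound set after the values were seen, the central 95% ran from -0.40 to 0.42. In that group 4 genes (0.308%) were at least 1.5-fold lower, Tbx18 and Pdgfrl among them. Dim genes that fell below the detection limit on the overexpression array are not in that group. Its lower end is therefore cut short, and it is not an independent reference for these members. Among 5173 brighter genes the central 95% ran from -0.28 to 0.26, and 2 genes (0.0387%) were at least 1.5-fold lower. Tnfrsf11b at -0.57 and Pdgfrb at -0.40 lay outside that range, and no replicate array was at hand to say how often such values recur.

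Vim and S100a4 were bright and differed little. Vim, whose product forms the intermediate filaments of mesenchymal cells, gave 40776 on the overexpression array and 44580 on the control array (probe ILMN_3161394). The overexpression signal was 208 times the detection limit and the control signal 222 times. The difference was -0.066. S100a4, a calcium-binding protein also called fibroblast-specific protein, gave 16061 and 17507 on the overexpression and control arrays (probe ILMN_2731901), with a difference of -0.075. Each of these values was smaller than the disagreement between probes of 1 gene, and with median scaling they were -0.020 and -0.016.

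Acta2, which encodes smooth muscle alpha-actin, was the only member with several named probes. The brightest (ILMN_2693895) gave 24913 on the overexpression array and 26602 on the control array, with a difference of -0.030 that became 0.014 with median scaling. The middle probe (ILMN_2710354) gave 1254 and 1450 on the overexpression and control arrays, a difference of -0.13. The dimmest (ILMN_2744825) gave 759 and 917 on the overexpression and control arrays, a difference of -0.20. All 3 probes were below 0 in quantile-normalized values, and the value nearest 0 came from the brightest probe. Thy1, which encodes a surface glycoprotein of fibroblasts and neurons, had no named probe and was not analysed here.

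**Figure D3:**
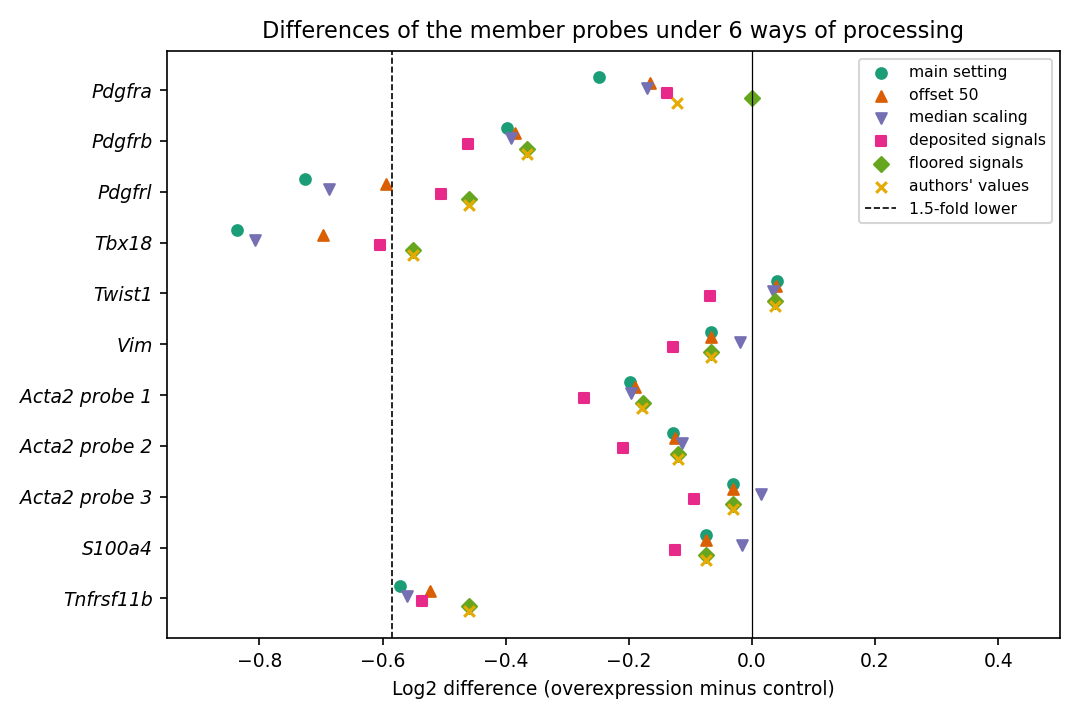
Log2 difference (overexpression minus control, horizontal axis) of each member probe under 6 ways of processing, with a dashed line at 1.5-fold lower; each symbol is 1 value from 1 array per group. The values for Tbx18 and Pdgfrl span the dashed line, Pdgfrb stays between -0.46 and -0.37, and Twist1 and the brightest Acta2 probe cross 0.

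No detected gene among the PDGF ligands and the receptors' signalling partners differed by 1.5-fold. All 4 ligand genes were detected, 3 of them below 0, with a median of -0.13. Pdgfb was lowest at -0.27, at signals of 279.6 on the overexpression array and 332.9 on the control array, and Pdgfa was highest at 0.0034. With deposited signals all 4 were below 0, beside 74.9% of all detected genes, and their median lay -0.085 from that of all genes. Of 26 genes of receptor signalling, 12 were detected, 6 below 0 and 6 above, with a median of -0.0010. The phosphatase gene Ptpn11 (SHP2) was highest at 0.33 and the kinase gene Map2k1 (MEK1) lowest at -0.24. Ptpn11 was represented by its brighter probe, with signals of 1064 on the overexpression array and 921 on the control array. Its dimmer probe, also detected on both arrays, was at 0.445. With deposited signals 9 of the 12 were below 0, a share near the 74.9% of all detected genes, and their median lay 0.0086 from that of all genes. Of the related receptor kinase genes Kit, Csf1r and Flt3, 0 had a named probe.

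Other mesenchymal transcription factors went in both directions. Of 15 listed genes 13 were detected, 5 below 0 and 7 above, with a median of 0.014 and 0 at 1.5-fold. Zeb2, a zinc finger repressor of epithelial genes, was highest at 0.43 with signals of 625 on the overexpression array and 516 on the control array. Foxc2, a forkhead factor of mesoderm, was lowest at -0.33, at 1340 and 1767 on the overexpression and control arrays. By a dimmer probe, also detected on both arrays, Tcf3 was at -0.52, against 0.0000 by the brighter probe that represents it. With deposited signals 8 were below 0 and 5 above, beside 74.9% of all detected genes below 0, and their median lay 0.012 from that of all genes. Other T-box genes were few, with 3 of 15 detected, all above 0 and none at 1.5-fold, although with deposited signals 1 of the 3 was below 0, beside 74.9% of all detected genes. The highest, Tbx6, was detected on the overexpression array only, with signals of 211.7 on that array and 191.8 on the control array, a ratio of 1.10. On the background-corrected scale it was at least 1.15-fold higher. The lowest was Mga at 0.047.

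Read from the brightest named probe of each gene, most genes of the actin and smooth muscle apparatus lay near 0, as Acta2 did. Of 21 listed genes 13 were detected, 9 below 0 and 2 above, with a median of -0.050 and 0 at 1.5-fold. With median scaling 7 were below 0 and 6 above, beside 43.8% of all detected genes below 0. With deposited signals all 13 were below 0, beside 74.9% of all detected genes, and their median lay -0.0095 from that of all genes. Cald1, the caldesmon gene, was lowest at -0.38 with signals of 756 on the overexpression array and 1028 on the control array. Tagln, which encodes transgelin, was highest at 0.051. Dimmer probes detected on both arrays were mostly lower. Tpm2 was at -0.33 (control signal 294.5), Myh9 at -0.30 (282.0) and Actb at -0.18, and only that of Cnn2 (0.0049) lay above 0. All 5 detected members of the S100 family other than S100a4 were below 0 in each of the 6 ways of processing. The share of all detected genes below 0 was 51.0% with quantile normalization, 43.8% with median scaling and 74.9% with deposited signals. These 5 S100 genes had a median of -0.088, with S100a13 lowest at -0.25 and S100a10 highest at -0.053. Intermediate filament genes other than Vim had 3 below 0 and 3 above, with a median of 0.015, and with deposited signals 4 were below and 2 above, beside 74.9% of all detected genes below 0. Synm was lowest at -0.16, although a dimmer probe of Plec, detected on the control array only, was at -0.54. Nefm, a neurofilament gene detected on the overexpression array only, was highest. Its signals were 225.9 on that array and 185.3 on the control array, a ratio of 1.22. On the background-corrected scale it was at least 1.28-fold higher. Subtracting background widens ratios, so such a bound holds on that scale alone and can exceed the ratio of the signals.

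**Figure D4:**
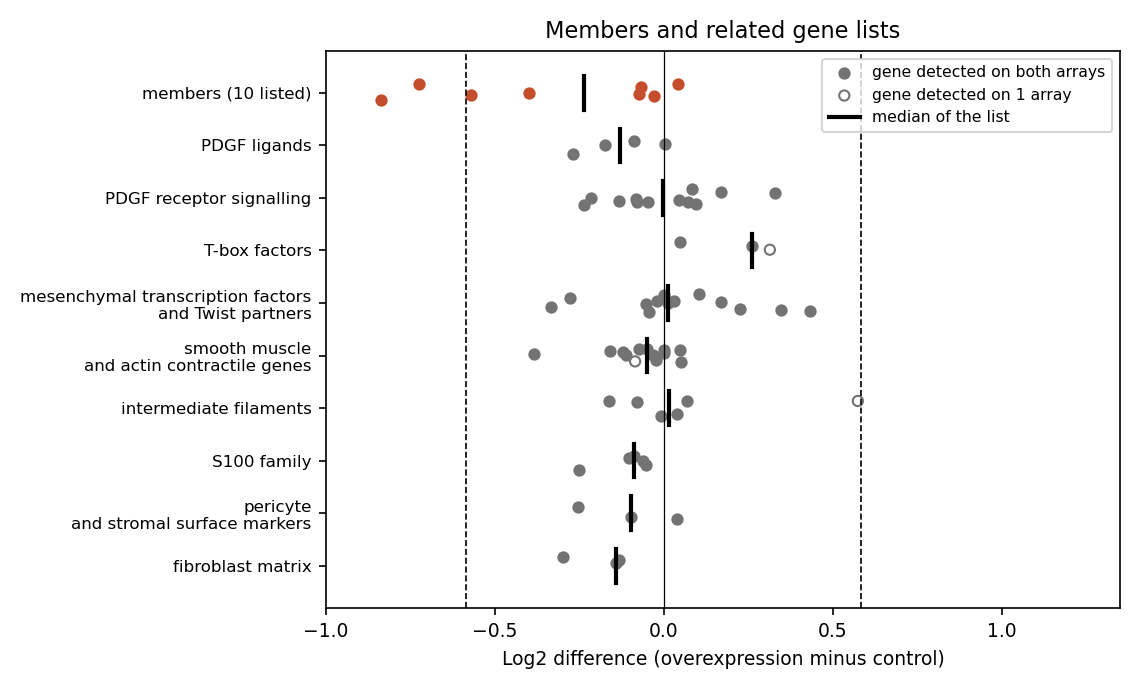
Log2 difference (overexpression minus control, horizontal axis) of detected genes in the members and 9 related lists, 1 point per gene, with open points for genes detected on 1 array (fitted value), black bars at each list's median and dashed lines at 1.5-fold in either direction. The members reach -0.84 and have a median of -0.24, while the medians of the other lists lie between -0.14 and 0.26. The members were chosen with these differences known, so their lower median is a description.

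Few pericyte and stromal surface markers were measured. Of 14 listed genes 3 were detected, with Cspg4, the NG2 proteoglycan of pericytes, lowest at -0.25, Mcam at -0.096 and Vcam1 highest at 0.038. Of 7 fibroblast matrix genes 3 were detected, all below 0 in each way of processing, from Sparc at -0.30 to Fn1 at -0.13. Of all detected genes, 51.0% were below 0 with quantile normalization, 43.8% with median scaling and 74.9% with deposited signals. Fn1 was read from its brightest probe, and its other probes, at 0.061 and 0.094, lay above 0. In the osteoprotegerin group 2 of 5 genes were detected, Tnfrsf10b at -0.24 and Traf6 at 0.15. By a dimmer probe, also detected on both arrays, Tnfrsf10b was at 0.064. No gene of these groups reached 1.5-fold.

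Markers of other cell types and of the labelled one were detected in part, as were the stromal markers above. Of 9 dopaminergic markers 3 had a named probe, all 3 detected and above 0, beside 51.0% of all detected genes below 0. These were Nr4a2 at 0.24, En1 at 0.15 (-0.17 by its dimmer probe, detected on the control array only) and Foxa2 at 0.10, with summed signals of 1065 on the overexpression array and 1028 on the control array. Th, Slc6a3, Slc18a2 and Ddc, which define the synthesis and transport of dopamine, had no named probe. Only probes detected at a p-value under 0.05 on at least 1 array carry a name, so a gene without one may be undetected or absent from the platform. Of 6 pan-neuronal markers 2 were detected, Stmn2 at -0.19 with signals of 3357 and 4050 on the overexpression and control arrays, and Tubb3, detected on the overexpression array only and at least 1.07-fold higher on the background-corrected scale. Of 4 astrocyte markers only Slc1a3 was detected, on the control array only, with a fitted difference of -0.63. Its signals were 181.6 on the overexpression array and 239.2 on the control array, a ratio of 0.759, and on the background-corrected scale it was at least 1.34-fold lower. Among epithelial markers Krt19 was detected, at 0.34, and endothelial and myeloid markers had 0 named probes. The part of other cell types in the members' values was not tested.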

How the data were processed

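Expression was measured on 2 single-colour Illumina bead arrays, 1 per group. The deposited table holds a non-normalized signal intensity and a detection p-value for 24613 probes per array, per the file headers. BeadStudio is named in the submitters' processing notes, with no version, and any background subtraction by the authors is unstated there. The control signal column carries the control sample's name, and the other, headed as test, was assigned to overexpression as the remaining sample. The authors' deposited value table has log2 signals for 11090 probes. Its overexpression column correlated across probes with that signal column at r = 0.99998, against 0.99613 with the control signals. Its columns hold the same sorted values (largest difference 0, median 9.19 in each), as quantile normalization gives. The log2 scale and the quantile step are read from these values, no label states them, and genes were not centred.

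Signals were corrected with limma 3.58.1 in R 4.3.3 (nec, offset 16), quantile-normalized over all probes and put on the log2 scale. This was run on simulated data, with changes placed only in probes brighter on the control array than those of Tbx18 and Pdgfrl. The simulation therefore cannot say how well differences near the detection limit are recovered. Probes were named through the platform annotation: 9762 had 1 gene symbol, and 9757 matched RefSeq by Entrez identifier. The other 1328 probes of the value table had no symbol. The named probe with the highest mean signal stood for its gene, which was counted if that probe was detected at a p-value under 0.01 on at least 1 array. For a gene detected on 1 array, the fold is a bound, valid for corrected values alone, the bright value against the higher of the lowest detected value and the dim probe's own. Coordinates are given for RefSeq promoter sequences alone. Every member probe is named, and in each related list the lowest and highest gene and any past 1.5-fold. Others are named beside them as examples. The members and lists were chosen with earlier results of these data known. Having 1 array per group limits the precision throughout. Alternatives were other background corrections, scalings, detection limits and probe rules, and the authors' values.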

Additional observations from a re-analysis of the deposited data

How the results depend on the processing

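The count of members at least 1.5-fold lower was 2 and depended on background treatment. It was 0 without background correction (signals raised to at least 196.1, the lowest detected), 0 with the authors' values and 1 with deposited signals. It stayed at 2 with offset 50, with median scaling, with each detection rule and with probes averaged. The count at least 1.5-fold higher was 0 in every alternative. The median over detected members was -0.24 and ran from -0.29 (deposited signals) to -0.21 (median scaling). Of 55 single-probe values under 5 alternatives, 48 moved by less than 0.149 and 7 by more, those of Pdgfra, Pdgfrl and Tbx18. No value past 1.5-fold changed sign. Members detected numbered 8 per array, and 9 at a p-value under 0.05, when Pdgfra is added. No paired analysis was possible because each group had 1 array, and for the same reason no replicate could be left out.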
